A study of Homo sapiens with 9 samples.

Results

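The 3 RNA-seq libraries numbered replicate 1 were compared with the 6 libraries numbered 2 or 3, out of 9 in all, with the construct held as a block. RIVA, a human lymphoma cell line of the ABC-DLBCL type (the activated subtype of this large B-cell tumour), carried a lentiviral tet-on construct (pLVX-TetOne) that was empty (vector), encoded the truncated BCL10 S136X or encoded BCL10 R58Q with 1 residue exchanged. Each of the 3 groups had 1 library of each number, and all 9, vector included, were harvested 24 h after 200 ng/mL doxycycline (the sample characteristics give the same figure per µL). The cells were infected and selected with puromycin, whether in 1 infection or several is not stated, and BCL10 reads do not separate the construct from the cells' own gene. The study describes the samples as biologic replicates and its experiments in general as done in independent replicates, but the labels do not say which culture, passage or day a number stands for. The names of the count columns carry an earlier date for vector and S136X than for R58Q, so date and R58Q cannot be told apart, while date and replicate number are separate. The libraries were picked by the number in their labels. The split itself was selected on measured values, namely the deviations of the libraries from their construct means. All values of replicate 1 against replicates 2 and 3 are therefore a description without a test, and support nothing by themselves.

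Type I interferon acts through its receptor, JAK kinases and a complex of factors that includes STAT2 and IRF9, which binds short repeated GAAA elements in promoters and switches on antiviral genes such as MX1, OAS3 and IFIT1. MHC class II molecules present peptides to CD4+ T cells, and their genes depend on the co-activator CIITA in B cells. Mature B cells also carry Fc receptor-like proteins and integrins, and a set of transcription factors including BACH2 and MEF2C that hold their state.

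Total counts were 28047713 to 33122267 per library. B-cell markers were expressed throughout: MS4A1 ranged over 364 to 686 CPM (counts scaled to library size after TMM normalization) and PAX5 over 998 to 1190. The targeted gene BCL10 stood at 26.3, 38.8 and 27.5 CPM in vector replicates 1 to 3, at 488, 410 and 345 in S136X and at 357, 338 and 309 in R58Q. It was far higher in every mutant library than in every vector library. Averaged over constructs, BCL10 differed little by number (log2 fold change 0.10, SE 0.12, replicate 1 against 2 and 3). Its replicate 1 library was the lowest in vector and the highest in S136X and in R58Q. Of 10 myeloid markers, every one stayed under 1 CPM in all libraries. The T-cell genes CD3D, CD3G and CD2 were at or near 0, and the endothelial and fibroblast genes VWF, CDH5 and LUM were at 0 counts in all 9 libraries, while other members of those lists were expressed and are given with the marker results.

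The numbers marked shared deviations across constructs. Over 15860 tested genes, libraries of different constructs that were both replicate 1 had deviations from their construct means that correlated at 0.454 to 0.626 (Pearson, across genes, 3 pairs). Pairs of replicate 2 gave 0.143 to 0.481 and pairs of replicate 3 gave 0.405 to 0.425. The 18 pairs with different numbers ranged from -0.459 to 0.169, with a median of -0.251, and deviations from a mean of 3 push such pairs below 0. These are the values that chose the split. Of the total sum of squares of log2 CPM, construct took 46.7% (2 degrees of freedom), replicate 1 against 2 and 3 took 23% (1), replicate 2 against 3 took 9.63% (1), and 20.7% was left (4).

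**Figure D1:**
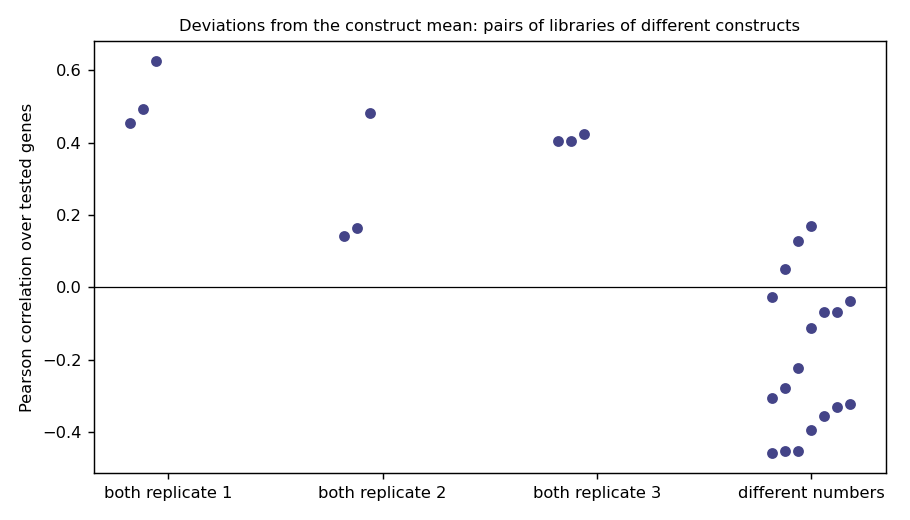
Each point is 1 pair of libraries of different constructs, and the vertical axis is the Pearson correlation over 15860 genes of their deviations in log2 CPM from the construct mean. The 3 pairs of replicate 1 libraries lie between 0.454 and 0.626, and the 18 pairs with different numbers between -0.459 and 0.169.

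A gene was called at a Benjamini-Hochberg adjusted p under 0.05 in edgeR's quasi-likelihood fit and at least 1.5-fold. Between replicate 1 and the others 637 genes were called (4.02% of those tested), 299 of them higher in replicate 1 (1.89%) and 338 lower (2.13%). A difference of at least 2-fold was reached by 130 higher and 154 lower genes. Over all genes tested, the replicate 1 library lay above both others in all 3 constructs for 15.9% and below both for 13%. Among the called genes this held for 284 of 299 higher and 326 of 338 lower ones, which the calls largely build in. The fit of each pair of numbers called 660 genes for 1 against 2 (4.16%), 851 for 1 against 3 (5.37%) and 163 for 2 against 3 (1.03%).

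The calls were also made from 2 constructs at a time and the left-out construct described. The split had been selected on all 9 libraries, the left-out ones included, so these shares are a description and no independent check. Of genes called higher in the other 2 constructs, the replicate 1 library of vector lay above both its partners for 224 of 263 (85.2%). For S136X this was 126 of 127 (99.2%) and for R58Q 117 of 118 (99.2%). For genes called lower, 246 of 267 (92.1%) were below both in vector, 168 of 175 (96%) in S136X and 170 of 175 (97.1%) in R58Q. Over all tested genes with the same sign in the other 2 constructs the shares were 50.6% to 59.7%. The median difference in the left-out construct was smaller in vector (0.50 higher, -0.73 lower, log2) than in S136X (0.96 and -1.05) or R58Q (1.11 and -0.96).

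Whether the replicate 1 difference itself differed between constructs was tested as an interaction. The test is not independent of the choice of the split, which rested on deviations that were alike across constructs, so a low count of interactions was favoured by that choice. At an adjusted p under 0.05, 0 of 15860 genes passed (0%), the smallest adjusted p being 0.9998 in edgeR's quasi-likelihood test. At an unadjusted p under 0.05 there were 267 (1.68%). DESeq2 and limma-voom also gave 0, while a fit without the filter on low counts gave 82. Of these 82 genes, 79 had also passed the filter, and their median total over the 9 libraries was 12993.5 counts. The count of interactions therefore depended on the settings of the fit, and not only on genes with few counts. With 1 replicate 1 library per construct, a missing call does not show that the constructs were alike.

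Interferon-stimulated genes were low in replicate 1 of every construct. Of 62 listed genes 59 were tested, 42 were called lower and 1 higher, beside 2.13% and 1.89% of all genes. Their median log2 difference was -0.92 (0.00 over all genes), with -0.56 in vector, -1.17 in S136X and -0.87 in R58Q. The replicate 1 library was the lowest of its construct for 50 of the 59 in all 3 constructs. Without the construct as a block, 1 was called lower in place of 42, at the same direction of the median. In bulk RNA, fewer expressing cells and less RNA per cell cannot be told apart. Members of this list described first are XAF1 (a pro-apoptotic partner of XIAP), HERC5 (the ligase that attaches ISG15) and RSAD2 (viperin).

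XAF1 was at 0.208, 1.16 and 2.85 CPM in vector replicates 1 to 3, at 0.752, 26.9 and 11.0 in S136X and at 2.46, 44.0 and 27.6 in R58Q. Its replicate 1 library was the lowest of the 3 in each construct, and the S136X replicate 1 level lay below that of vector replicate 2. The log2 fold change was -4.06 (SE 0.43). For XAF1, 38.3% of the exon bases overlap a gene on the other strand, and without strand such reads cannot be told apart.

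HERC5 read 0.237, 1.31 and 2.15 CPM in vector, 0.478, 22.5 and 5.05 in S136X, and 1.28, 30.6 and 10.1 in R58Q (log2 fold change -4.12, SE 0.68). Replicate 2 of both mutants stood well above replicate 3, whereas vector replicate 2 stood below it. For XAF1 and HERC5, replicate 1 of vector and of S136X lay under 1 CPM, so the sizes of these folds are uncertain. RSAD2 had only 0, 4 and 0 counts in vector, 1, 59 and 8 in S136X and 3, 103 and 22 in R58Q, so no fold is given for it. Its counts were highest in replicate 2 of each construct.

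IFI44L, an interferon-induced gene of B and other cells, gave 2.17, 10.5 and 11.0 CPM in vector, 9.5, 186 and 71.4 in S136X and 22.8, 239 and 154 in R58Q (log2 fold change -3.23, SE 0.35). S136X replicate 1 thus sat below vector replicates 2 and 3. Also called lower were its neighbour IFI44 (log2 fold change -3.58, SE 0.35), the nucleotide kinase CMPK2 (-3.16, SE 0.62), the RNA-binding IFIT1 (-2.83, SE 0.57) and the helicase DDX60 (-2.80, SE 0.61). LY6E, a membrane protein induced by interferon, was at 1.99, 9.17 and 11.8 CPM in vector against 4.21, 75.8 and 33.3 in R58Q (log2 fold change -3.46, SE 0.41). LY6E was on none of the gene lists.

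MX1, a dynamin-like antiviral GTPase, had 87.2, 161 and 226 CPM in vector, 241, 992 and 590 in S136X and 405, 1149 and 835 in R58Q (log2 fold change -1.38, SE 0.18). The signalling factors STAT2 (log2 fold change -0.52, SE 0.10) and IRF9 (-0.50, SE 0.13) did not reach 1.5-fold and were not called. LGALS9, which encodes galectin-9 and was not on the list, had the lowest fold change among protein-coding genes with a mean of at least 2 CPM whose replicate 1 library lay outside both others in all 3 constructs. It read 0.089, 2.48 and 1.06 CPM in vector, 0.444, 9.3 and 2.95 in S136X and 0.202, 8.65 and 3.55 in R58Q (log2 fold change -4.24, SE 0.61). All 3 replicate 1 levels lay under 1 CPM, so the size of this fold is uncertain. For LGALS9, 27.6% of its 31-base words also occur in other genes, so part of its reads may have been assigned among copies.

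The interferon element was looked for in promoters, from 250 bases before to 50 after the RefSeq start, as GAAA, any 2 bases and GAAA, on either strand. Of 32 called-lower interferon-stimulated genes with a RefSeq promoter, 21 held it (65.6%). Among all tested genes of that list the share was alike, at 32 of 48 (66.7%), so it describes the list and not the calls. Over all 338 genes called lower, 219 had a promoter and 36 held it (16.4%), against 4 of 192 (2.08%) called higher, 317 of 10412 tested (3.04%) and 996 of 27305 promoters in all (3.65%). Outside the interferon list, 15 of 187 called-lower genes held it (8.02%). Promoters of 14 MHC class II genes held it in 0 (0%), which says only that these letters are not in this window. The promoters below, from RefSeq on GRCh38.p14, belong to 3 interferon-stimulated genes called lower, to FCRL1 (called lower, not on the list) and to CXCL10 (called higher), with matches in capitals:

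IFI44L (chr1:78620198-78620497, plus strand): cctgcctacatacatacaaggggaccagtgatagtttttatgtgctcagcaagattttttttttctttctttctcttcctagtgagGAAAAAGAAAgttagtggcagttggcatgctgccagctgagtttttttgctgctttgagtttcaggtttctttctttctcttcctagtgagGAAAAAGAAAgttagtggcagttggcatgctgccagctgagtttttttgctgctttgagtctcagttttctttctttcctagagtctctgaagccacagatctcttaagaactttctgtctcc
IFIT1 (chr10:89392373-89392672, plus strand): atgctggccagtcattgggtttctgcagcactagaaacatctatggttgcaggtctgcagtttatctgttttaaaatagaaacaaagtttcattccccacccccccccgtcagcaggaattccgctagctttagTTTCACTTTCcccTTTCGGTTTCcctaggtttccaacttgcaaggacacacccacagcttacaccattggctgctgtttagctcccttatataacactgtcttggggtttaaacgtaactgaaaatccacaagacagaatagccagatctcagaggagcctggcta
DDX60 (chr4:168318703-168319002, minus strand): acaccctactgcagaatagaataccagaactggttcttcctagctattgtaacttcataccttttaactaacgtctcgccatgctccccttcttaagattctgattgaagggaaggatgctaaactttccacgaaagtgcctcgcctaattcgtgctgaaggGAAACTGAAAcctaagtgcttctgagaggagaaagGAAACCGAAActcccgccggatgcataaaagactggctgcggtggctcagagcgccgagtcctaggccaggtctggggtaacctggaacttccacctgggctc
FCRL1 (chr1:157820071-157820370, minus strand): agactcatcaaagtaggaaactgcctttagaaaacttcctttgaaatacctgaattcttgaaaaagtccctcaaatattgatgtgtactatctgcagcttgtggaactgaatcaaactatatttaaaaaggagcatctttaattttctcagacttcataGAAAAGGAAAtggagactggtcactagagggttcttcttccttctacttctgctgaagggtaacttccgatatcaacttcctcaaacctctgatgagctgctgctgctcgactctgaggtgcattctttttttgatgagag
CXCL10 (chr4:76023448-76023747, minus strand): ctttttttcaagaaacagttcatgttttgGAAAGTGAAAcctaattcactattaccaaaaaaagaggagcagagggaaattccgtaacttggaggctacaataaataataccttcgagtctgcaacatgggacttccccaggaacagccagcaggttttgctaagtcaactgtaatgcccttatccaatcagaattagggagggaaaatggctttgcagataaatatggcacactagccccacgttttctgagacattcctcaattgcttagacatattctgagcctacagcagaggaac

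IFI44L holds 2 matches on the gene's strand, IFIT1 has 2 on the other strand, and DDX60 has 2 on its own strand. FCRL1 holds 1 match, starting 91 bases before the annotated start, and CXCL10 has 1 that starts 221 bases before it. A match is a description of the sequence and not a binding site measured here.

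**Figure D2:**
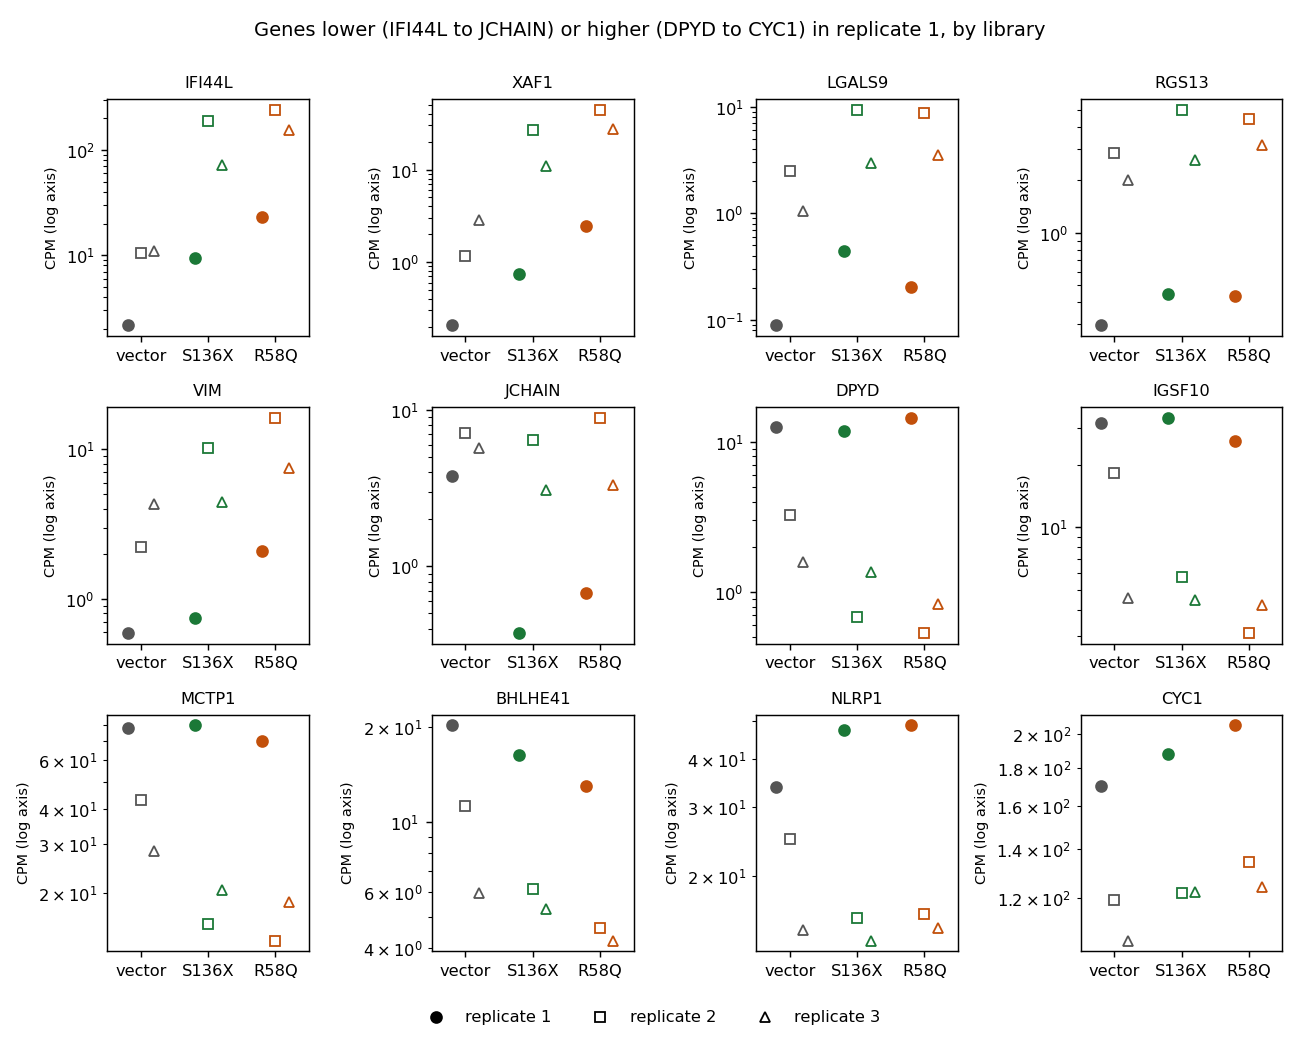
Levels of 12 genes in each of the 9 libraries, in CPM on log axes, with filled circles for replicate 1 and open squares and triangles for replicates 2 and 3. In each panel the 3 filled symbols lie below (IFI44L to JCHAIN) or above (DPYD to CYC1) both other libraries of the same construct.

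Interferon-stimulated genes also differed by construct. Against vector, in a fit with the replicate number as a term, 40 of the 59 were called higher in S136X and 51 in R58Q, beside 3.2% and 4.89% of all genes called higher (507 and 775 genes), 4.21% and 6.28% called lower, and 7.41% and 11.2% in all. The 2 comparisons share the vector libraries. Summed over the list, vector replicates 1 to 3 reached 1193, 1608 and 1811 CPM, S136X reached 1704, 4955 and 2999, and R58Q reached 2740, 6244 and 4470. S136X replicate 1 therefore lay between vector replicates 2 and 3. Compared within a number, the median log2 difference of S136X from vector was 0.56 in replicate 1, 1.55 in replicate 2 and 0.71 in replicate 3, and that of R58Q was 1.25, 1.95 and 1.44. Without the replicate number in the fit, 11 interferon-stimulated genes were called higher in S136X instead of 40, and 41 in R58Q instead of 51 (a fit added after the data were seen). Leaving out the 3 replicate 1 libraries gave 45 and 51.

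**Figure D3:**
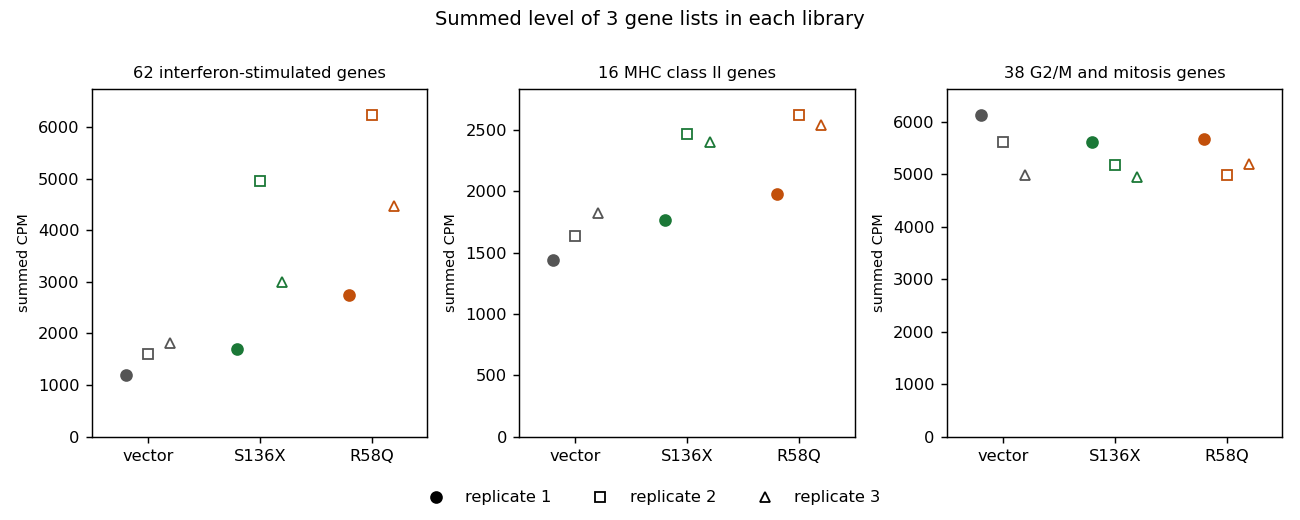
Summed CPM per library of 62 interferon-stimulated genes, 16 MHC class II genes and 38 G2/M and mitosis genes, on axes from 0, with filled circles for replicate 1. For interferon-stimulated genes the sum in S136X replicate 1 (1704) lies between those of vector replicates 2 and 3 (1608 and 1811).

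MHC class II genes were lower in replicate 1 of each construct, by a similar median over genes. All 16 listed genes were tested, 8 were called lower and 0 higher (2.13% and 1.89% over all genes), and the median log2 difference was -0.58 (vector -0.50, S136X -0.61, R58Q -0.57). Without the construct as a block 3 were called lower. The summed level of the list differed less in vector (-0.26) than in S136X (-0.46) or R58Q (-0.39). These are log2 values of replicate 1 over the geometric mean of replicates 2 and 3. HLA-DQA1, an alpha chain, was at 0.416, 1.77 and 3.47 CPM in vector, 3.52, 16.6 and 11.0 in S136X and 8.96, 27.2 and 21.3 in R58Q (log2 fold change -1.79, SE 0.24). Replicate 1 of R58Q lay above every vector library for HLA-DQA1, and replicate 1 of S136X lay close to vector replicate 3. The beta chains HLA-DRB1 (log2 fold change -1.45, SE 0.15) and HLA-DRB5 (-1.42, SE 0.23) were also called, though 24.6% and 19.4% of their 31-base words occur in other genes.

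The levels of the class II regulators differed far less. CIITA, the master co-activator, differed by -0.15 (SE 0.05, log2), RFX5 by -0.10 (SE 0.04), RFXAP by -0.01 (SE 0.07) and RFXANK by 0.00 (SE 0.05), and none of the 4 was called. HLA-DPB1 was not called either (-0.13, SE 0.06), in contrast to its partner chain HLA-DPA1 (-0.89, SE 0.08). Between replicates 2 and 3, where 1.03% of all genes were called, 0 of 16 class II genes were called (median 0.02), and 14 of 59 interferon-stimulated genes were called higher in replicate 2 (median 0.34). The difference between these lists was not tested. In the mutants, 7 class II genes were called higher in S136X and 8 in R58Q, against vector, beside 3.2% and 4.89% of all genes.

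Surface and signalling genes of B cells held further lower genes. Of 35 tested B-cell receptor signalling genes 7 were called lower and 0 higher, beside 2.13% and 1.89% of all genes, with a median of -0.18. They were the Fc receptor-like genes FCRL1, FCRL2, FCRL3, FCRL5 and FCRLA, the Ras exchange factor RASGRP3 and the co-receptor CD72, with log2 fold changes from -1.82 (FCRL1, SE 0.23) to -0.63 (FCRL5, SE 0.07). FCRL2 read 11.0, 30.5 and 28.9 CPM in vector, 40.8, 66.8 and 76.0 in S136X and 74.7, 85.3 and 115 in R58Q. Replicate 1 was the lowest of FCRL2 in each construct, and by a wider margin in vector than in R58Q on the log scale.

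Of 35 migration and adhesion genes 5 were called lower and 0 higher (median -0.07), beside 2.13% and 1.89% of all genes. VIM, the intermediate filament vimentin, stood at 0.594, 2.23 and 4.33 CPM in vector, 0.752, 10.2 and 4.42 in S136X and 2.09, 16.3 and 7.52 in R58Q (log2 fold change -2.72, SE 0.40), with 24.4% of its exon bases overlapped by genes on the other strand. Integrin alpha 4 (ITGA4) differed by -1.41 (SE 0.26), CD48 by -1.36 (SE 0.09) and integrin beta 2 (ITGB2) by -1.05 (SE 0.08). In each of these 4 genes all 3 replicate 1 libraries lay below both partners.

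Of 33 B-cell and plasma-cell fate genes 4 were called lower and 0 higher (median -0.02), beside 2.13% and 1.89% of all genes. JCHAIN, the joining chain of secreted IgM and IgA, was at 3.8, 7.15 and 5.71 CPM in vector, 0.376, 6.42 and 3.09 in S136X and 0.674, 8.92 and 3.3 in R58Q (log2 fold change -1.98, SE 0.50). The gap to the partners was wider in the mutants than in vector, a difference that did not pass the interaction test. MEF2C (-0.84, SE 0.20), BACH2 (-0.82, SE 0.25) and MYBL1 (-0.63, SE 0.07) were the others. RGS13, a germinal-centre regulator of G-protein signalling, fell outside all lists at 0.297, 2.84 and 2.0 CPM in vector, 0.444, 4.99 and 2.6 in S136X and 0.438, 4.41 and 3.15 in R58Q (log2 fold change -3.07, SE 0.30).

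The 12 protein-coding genes with the highest fold changes, at a mean of at least 2 CPM and outside both partners in all 3 constructs, were on none of the pathway lists except HSPA4L, a heat shock gene. DPYD, which breaks down pyrimidines, was at 12.6, 3.27 and 1.59 CPM in vector, 11.8, 0.682 and 1.37 in S136X and 14.5, 0.534 and 0.826 in R58Q (log2 fold change 3.35, SE 0.31). IGSF9B, an adhesion molecule, had 5.28, 1.68 and 0.647 CPM in vector, 9.02, 0.124 and 0.351 in S136X and 7.72, 0.234 and 0.336 in R58Q (3.80, SE 0.44). In both genes the 3 replicate 1 libraries were close to each other and well above the other 6.

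IGSF10 gave 31.5, 18.2 and 4.56 CPM in vector, 33.6, 5.77 and 4.49 in S136X and 26.0, 3.11 and 4.25 in R58Q (log2 fold change 2.32, SE 0.34), with 31% of its exon bases overlapping MED12L on the other strand. MED12L itself was not called (0.48, SE 0.08). MCTP1, a calcium-binding membrane protein, had 78.0, 43.0 and 28.2 CPM in vector, 79.7, 15.4 and 20.5 in S136X and 70.2, 13.5 and 18.5 in R58Q (1.81, SE 0.19). In IGSF10 and MCTP1 vector replicate 2 took a place between replicates 1 and 3. The rest were PLCB1 (2.28, SE 0.25), the thyrotropin receptor TSHR (1.91, SE 0.19), NRN1 (1.83, SE 0.22), integrin alpha V ITGAV (1.71, SE 0.23), the chaperone HSPA4L (1.59, SE 0.24), CHST2 (1.53, SE 0.16), the clock repressor BHLHE41 (1.43, SE 0.16) and the inflammasome sensor NLRP1 (1.40, SE 0.18).

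The place of vector replicate 2 was general. Of the 299 genes called higher, replicate 2 was nearer than replicate 3 to replicate 1 for 233 in vector (77.9%), 142 in S136X (47.5%) and 116 in R58Q (38.8%). Of the 338 called lower it was nearer for 246 in vector (72.8%), 120 in S136X (35.5%) and 119 in R58Q (35.2%). Over all tested genes the shares were 55.1%, 51.9% and 47.6%.

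Other programmes had few called genes, beside 1.89% of all genes called higher and 2.13% lower. Of 38 G2/M and mitosis genes 0 were called, although 36 lay above 0, with a median of 0.16. TOP2A, a topoisomerase of dividing cells, differed by 0.21 (SE 0.05) and MKI67 by 0.16 (SE 0.06). Of 38 G1/S and replication genes 0 were called either (median -0.04). Replication-dependent histone genes had 28 tested of 53 listed, with 2 called lower and a median of -0.30. H1-2 read 33.8, 40.6 and 67.5 CPM in vector, 30.5, 55.8 and 71.3 in S136X and 34.2, 53.7 and 78.7 in R58Q, so that replicate 3 was the highest of each construct and replicate 1 the lowest.

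Glycolysis and hypoxia genes had 4 of 38 called higher and 0 lower (median 0.16), beside 1.89% and 2.13% of all genes: NDRG1 (1.09, SE 0.19), PFKFB4 (0.88, SE 0.15), VEGFA (0.61, SE 0.10) and ANKRD37 (0.60, SE 0.10). Near that background, single genes were called higher among 32 cholesterol and fatty acid genes (ELOVL6), 26 heat shock genes (HSPA4L), 77 nuclear oxidative phosphorylation subunits (CYC1, the cytochrome c1 subunit) and 38 ribosome biogenesis genes (BOP1). SLC7A11, the cystine transporter, was higher and on both the ATF4 list (37 tested, DDR2 lower) and the antioxidant list (29 tested, OSGIN1 lower). Of 46 AP-1 and immediate early genes EGR3 (-1.25, SE 0.10), EGR2 and FOSB were called lower and SPRED1 higher. No member was called among 79 cytosolic ribosomal protein, 15 mitochondrially encoded, 32 ER chaperone, 25 p53 target, 33 lysosome or 28 nuclear-retained RNA and snoRNA host genes.

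NF-kB target genes, of which 38 were called higher in S136X and 45 in R58Q against vector (3.2% and 4.89% of all genes), were called by number about as often as all genes. Of 54 tested, 1 was called higher (CXCL10) and 1 lower (CCL4), beside 1.89% and 2.13% of all genes, with a median of -0.01, and the summed level was 5472, 5444 and 5648 CPM in vector, 10270, 10130 and 9971 in S136X and 15820, 13230 and 15800 in R58Q. CCL4, a chemokine with 18.2% of its 31-base words in other genes, differed by -0.78 (SE 0.10).

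A few markers of other cell types were called, beside 1.89% of all genes called higher and 2.13% lower. Of 12 T-cell markers 7 were tested: TRAC was called lower (-2.09, SE 0.41) and CD4 higher (1.65, SE 0.24), and the summed level was 138, 154 and 179 CPM in vector, 82.6, 140 and 117 in S136X and 93.4, 151 and 115 in R58Q, most of it from LCK and TRBC2. Of 9 fibroblast and endothelial markers 4 were tested, with COL1A2 (1.29, SE 0.13) and PDGFRB (1.23, SE 0.25) called higher, and sums of 22.4 to 30.7 CPM. Of 7 epithelial markers 5 were tested and 0 called, with sums of 41.9 to 71.7 CPM, mostly EPCAM. Other members of these lists were expressed: PECAM1 ranged over 7.72 to 19.2 CPM, COL1A1 over 3.06 to 17.2, CD5 over 2.6 to 5.24 and CD8A over 2.71 to 6.33. The part of other cells in the results was not tested.

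**Figure D4:**
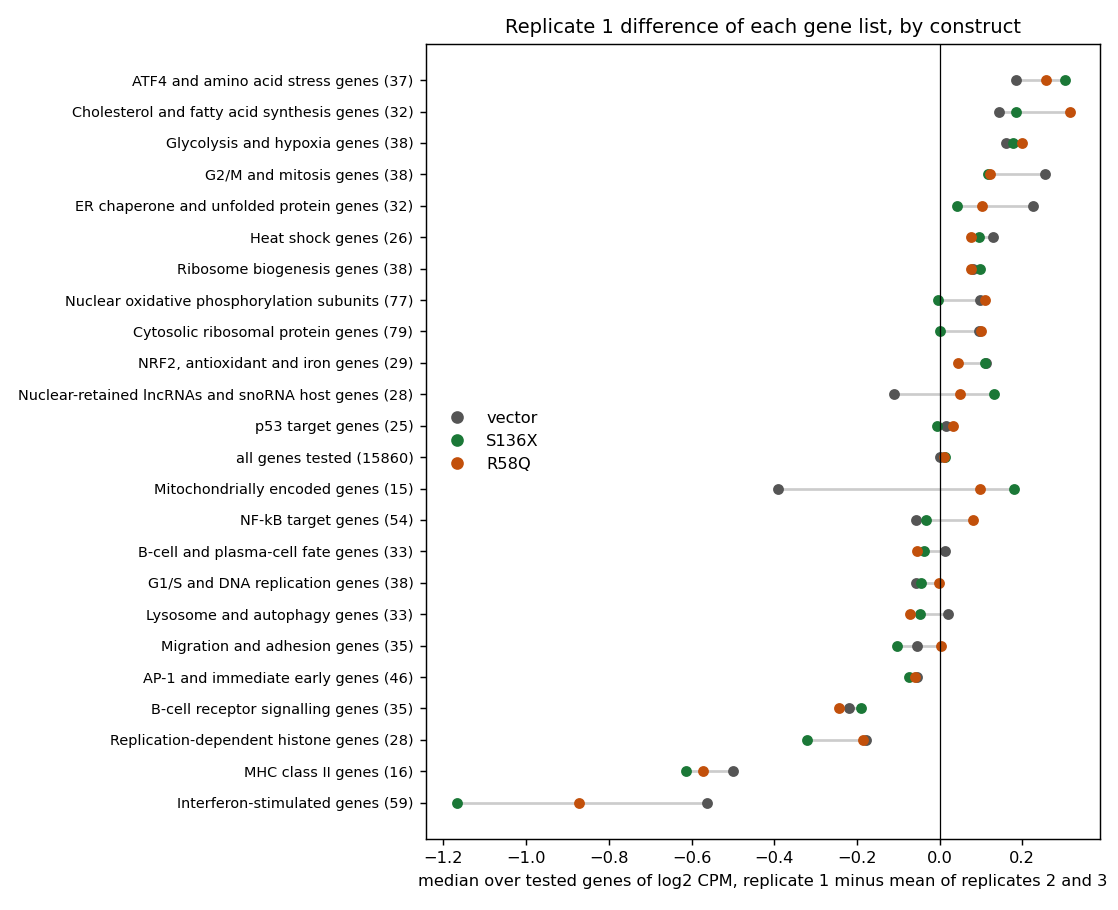
Median over the tested genes of each list other than the marker lists of other cell types (number in brackets) of the difference in log2 CPM between replicate 1 and the mean of replicates 2 and 3, with 1 point per construct joined by a grey line. Interferon-stimulated genes (-1.17 to -0.56) and MHC class II genes (-0.61 to -0.50) lie furthest to the left of the lists plotted, and all genes tested lie at 0.00 to 0.01.

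Genes that differed were also placed together on chromosomes, a pattern looked for after the data were seen. Genes with a mean of at least 5 CPM were grouped in windows of 5 Mb. Over 348 windows with at least 10 genes, the median log2 difference of replicate 1 had a 5th percentile of -0.12 and a 95th of 0.11. It reached 0.49 for the 70 genes from 140 to 145 Mb of chromosome 8 and 0.47 and 0.50 for the 18 and 15 genes from 75 to 80 and 80 to 85 Mb of chromosome 4.

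Runs of neighbours were then taken where the running median of 9 genes was at least 0.3 from 0 over at least 7 genes. On chromosome 8 a run of 73 genes went from PVT1 to ZNF34 (chr8:127794526-144787345) with a median of 0.50 (vector 0.42, S136X 0.54, R58Q 0.58). Replicate 1 was the highest of its construct in all 3 for 63 of the 73, beside 15.9% of all genes, and 22 were called higher. HSF1, the heat shock factor, had 214, 159 and 135 CPM in vector, 231, 144 and 157 in S136X and 227, 141 and 140 in R58Q (log2 fold change 0.62, SE 0.06). LY6E, induced by interferon but on none of the gene lists, was the 1 called lower.

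At the end of the run, next to ZNF34 (0.74, SE 0.14) lies RPL8 (-0.27, SE 0.06), and of the 8 genes from RPL8 to the end of chromosome 8, 7 were below 0, with replicate 1 the lowest in all 3 constructs for each of the 7. The exception, ZNF517, was called higher (0.81). At its start PVT1, the first gene of the run, differed by 0.02 (SE 0.11) and the next, CYRIB, by 0.50 (SE 0.09), while before PVT1 stood MYC at -0.06 (SE 0.05) and AC104370.1 at 0.46 (SE 0.10).

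On chromosome 4, 6 runs held 82 genes with a median of 0.39 (vector 0.33, S136X 0.44, R58Q 0.39), and replicate 1 was the highest in all 3 constructs for 71 of them. The first began at COX18 (0.42, SE 0.07) while the gene before it in order, DCK, stood at -0.10 (SE 0.10), and the runs from COX18 to MRPL1 and from ANTXR2 to ARHGAP24 (chr4:73052362-77952785 and chr4:79901146-86002668) held 19 and 17 genes. CXCL10, an exception in both the interferon and the NF-kB list, lies in the first of these at 5.16, 2.54 and 3.77 CPM in vector, 14.6, 6.57 and 7.82 in S136X and 28.2, 10.4 and 18.4 in R58Q (log2 fold change 0.92, SE 0.17). Nearby NUP54, a nuclear pore protein (0.39, SE 0.06), and SDAD1 (0.49, SE 0.07) were above 0 and not called. HERC5 and HERC6, on the same chromosome but outside the runs, were among the lower genes.

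Of the 14 list members called higher, 6 lay within the runs of chromosomes 4 and 8 (ANKRD37, BOP1, CXCL10, CYC1, NDRG1 and SLC7A11), against 0 of 75 list members called lower. Over all genes, 34 of 299 called higher (11.4%) and 2 of 338 called lower (0.592%) started within them, beside 1.39% of genes tested. In the same runs the median log2 difference of replicate 2 from 3 was 0.12 on chromosome 4 and 0.05 on chromosome 8, and that of the mutants from vector lay between -0.10 and -0.02. Shorter runs of lower genes were a stretch of the class II region on chromosome 6 (HLA-DRA to HLA-DOA, 14 genes, median -0.67) and 7 genes on chromosome 19 (ZNF440 to MAN2B1, -0.34). The stretch on chromosome 6 also holds TAP1, TAP2, PSMB8, PSMB8-AS1, PSMB9 and BRD2, which are not class II genes. The runs were picked by these values, so they are a description, and the DNA of these segments was not measured in these files.

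**Figure D5:**
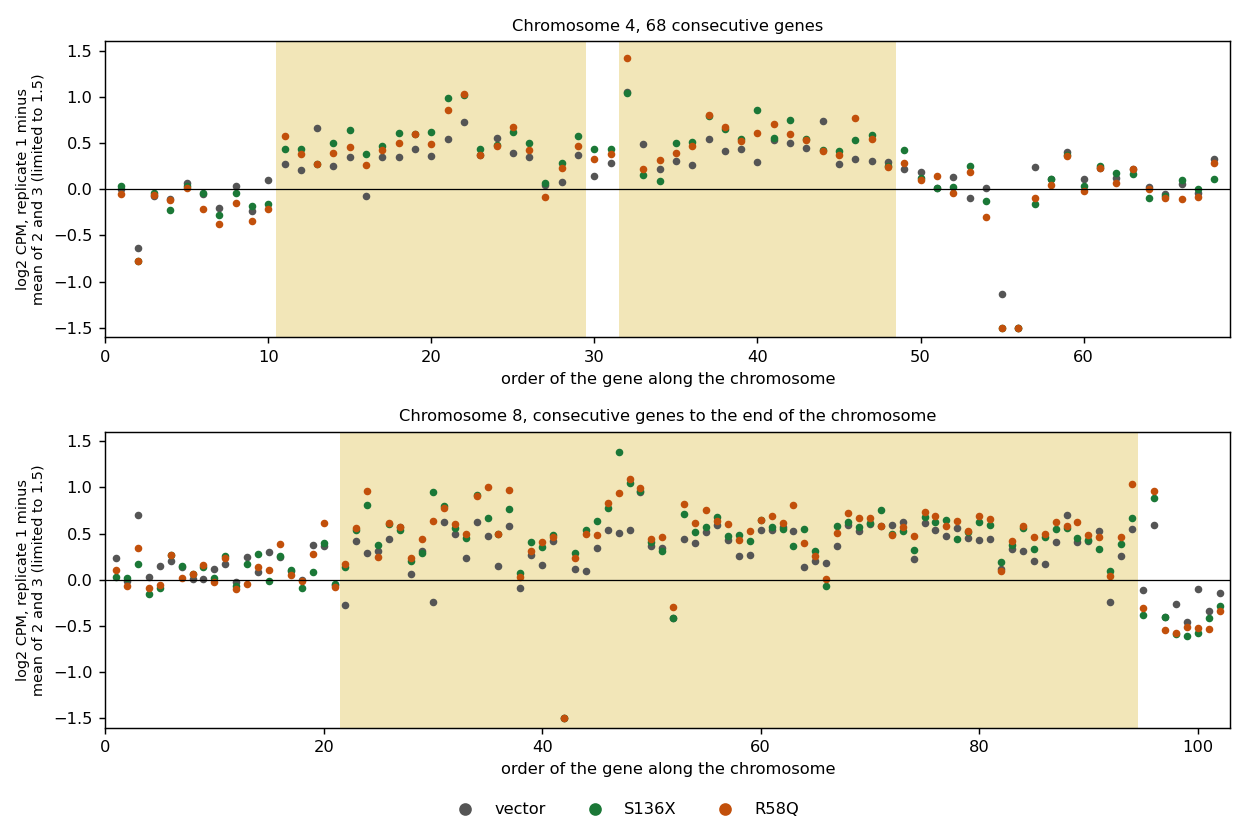
Difference in log2 CPM between replicate 1 and the mean of replicates 2 and 3 for consecutive genes on part of chromosome 4 (top) and chromosome 8 (bottom), by order and not by distance, with 1 point per construct, values limited to 1.5 and shading for the runs. Points of all 3 constructs lie higher at COX18, the first gene of the first shaded run on chromosome 4, than at DCK before it. COX18 reads 0.27 (vector), 0.43 (S136X) and 0.58 (R58Q), and DCK 0.10, -0.17 and -0.22. After the run on chromosome 8 the points of all 3 constructs lie below 0 for 7 of 8 genes.

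The 2 directions differed in gene type and in the medians of transcript length and GC content, and these differences were not tested. Of the genes called higher 90.6% were protein-coding and of those called lower 78.7%, against 77.3% of all tested. The median longest transcript was 3831 bases for the higher, 3245 for the lower and 3098 for all genes, with GC contents of 52.4%, 48.9% and 48.6% (99.0% to 99.1% of genes matched in GENCODE release 29). The quartiles overlapped widely, with GC of 43.08% to 60.48% (higher), 43.08% to 55.95% (lower) and 42.23% to 56.6% (all genes). The called genes were weakly expressed, with median levels of 2.69 CPM (higher) and 3.81 (lower) against 15.9 over all genes. Mitochondrial transcripts took 6.02%, 8.45% and 7.78% of counts in vector replicates 1 to 3 and 5.12% to 7.14% in the mutants, so replicate 1 was the lowest in vector, the highest in S136X and between its partners in R58Q; its part in the results was not tested.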

How the data were processed

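RNA of 9 RIVA libraries was sequenced from poly(A) libraries. The authors deposited raw counts per gene, with normalized values that were not used here, and their processing notes name cutadapt, STAR, Picard and hg38. The counting program is not given in the sources used here. The counts as deposited were filtered (filterByExpr, by construct), scaled by TMM and fitted in edgeR 4.0.16 (R 4.3.3) with quasi-likelihood tests, construct as a block and replicate 1 against 2 and 3 as a term. A call needed a Benjamini-Hochberg adjusted p below 0.05 with a change of 1.5-fold or more. Levels are TMM-scaled CPM. DESeq2 1.42.0 and limma-voom 3.58.1 were alternatives. The edgeR, DESeq2 and limma-voom fits of the replicate 1 difference and of the interaction were tried on simulated counts. The chromosome runs, promoter searches and list summaries were not. Total counts were 28047713 to 33122267 per library, so counting error is small beside the spread between libraries for all but genes with few counts.

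Same-numbered libraries of different constructs deviated together (correlations of 0.143 to 0.626 in 9 pairs, all over 0.1), and the numbers were taken to pair the samples. Pairs with different numbers reached 0.169, above the 0.143 and 0.163 of vector replicate 2 with replicate 2 of S136X and R58Q. The pairing was thus read from these same data, and is weak for vector replicate 2. The study calls its replicates biologic and independent, but no source used here says which step was repeated, so p-values measure the spread between these libraries, which may be partly technical. Named genes were the 12 highest and 12 lowest fold changes as defined in the results, up to 3 called members of each gene list by absolute fold change (the 2 most abundant where none was called), and BCL10. Other genes were named after their values were seen. The members, lists and named-gene rule were chosen with earlier results of these data known. The chromosome runs, promoter letters, replicate-free construct fits and overlap values were chosen after seeing the data. Gene symbols and positions are those given with the deposited counts. Transcript sequences and overlaps came from GENCODE release 29 (15698 of 15860 tested genes matched). Some genes are not reported here.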

Additional observations from a re-analysis of the deposited data

Results flagged for a closer look

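For 6 gene lists the summed level of replicate 1 lay above both other libraries in one construct and below both in another, which set them apart from the other lists. In each case the difference was not tested. Values are log2 of replicate 1 over the geometric mean of replicates 2 and 3. Mitochondrially encoded genes stood at -0.411 in vector and 0.166 in S136X. Nuclear-retained lncRNAs and snoRNA host genes stood at -0.175 in vector, 0.157 in S136X and 0.118 in R58Q. Migration and adhesion genes had 0.0146 in vector and -0.102 in S136X, and lysosome and autophagy genes had 0.0503 in vector and -0.0283 in R58Q. Myeloid markers, whose summed level stayed under 1 CPM, had -0.897 in S136X and 0.0458 in R58Q. Fibroblast and endothelial markers had 0.113 in vector, -0.306 in S136X and -0.207 in R58Q.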

How the results depend on the processing

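The count of 637 genes (299 higher, 338 lower) stayed within 1.5 times under 16 of 24 alternatives, among them the replicate block of 3 levels (759, with 350 higher and 409 lower), DESeq2 (543) and total counts only (637, with 255 higher and 382 lower). It was 174 (82 and 92) without the construct block, 302 (127 and 175) without the S136X libraries, 293 (118 and 175) without the R58Q libraries, 2081 (1166 and 915) with no fold threshold, 352 (168 and 184) at an adjusted p under 0.01 and 284 (130 and 154) at 2-fold or more. Leaving out 1 library gave 262 to 720 (110 to 353 higher, 152 to 367 lower), lowest without R58Q replicate 1 (262) and S136X replicate 1 (298). The 163 genes between replicates 2 and 3 became 314 with no filter, 373, 13 and 33 without the vector, S136X and R58Q libraries, and 64 to 375 with 1 library left out, highest without vector replicate 2. The interaction count of 0 became 82 with no filter and stayed 0 with 1 library left out. Interferon-stimulated genes called higher in S136X numbered 11 with no replicate block, against 40. The cause was not tested.

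Of 1164 pairs of a called named gene and an alternative, 1024 kept the call, 140 lost it and 0 reversed, with 30 of the losses under no construct block. Called-lower interferon-stimulated genes numbered 1 (no construct block) to 46 over the alternatives, and their median stayed between -1.10 and -0.74. For MHC class II genes these were 3 to 9, and -0.62 to -0.57.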
